A study of Mus musculus with 6 samples.

Results

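The genes described here are 9 genes of lymphoid tissue inducer cells and of the lymphotoxin signal, among 54735 gene symbols in each count table: the ligand genes Ltb, Lta and Tnfsf11, the receptor genes Ltbr, Il7r and Cxcr5, the surface gene Cd4, and the chemokine genes Cxcl13 and Ccl21a. They were chosen by symbol, with the difference between the groups already known, so their own differences are described. The test over all genes included those with enough counts, but nothing is read from its calls of members. RNA was sequenced from 6 samples of whole pancreas of mouse embryos at e16.5. The 3 control samples were labelled Neurog3:cre, and the 3 RARdn samples Neurog3:cre with RARdnfl/fl, an allele name that commonly stands for a retinoic acid receptor made dominant-negative, which the labels do not spell out. All 6 carried the cre driver, which acts in endocrine progenitors and their descendants, and all were on a mixed C57Bl6/129SV background. No label gives the litter or the day of a sample.

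Lymphoid tissue inducer cells are innate lymphoid cells of the embryo that start lymph nodes and Peyer's patches. They depend on the transcription regulator Id2. They respond to interleukin 7 through the receptor made from Il7r, and in the mouse many of them carry CD4. Their surface lymphotoxin, made from Lta and Ltb, binds the lymphotoxin beta receptor on stromal cells. The receptor signals to NF-kB, including its p52 and RelB form, and the stroma then makes chemokines such as CXCL13, which attracts cells with CXCR5, and CCL21, which attracts cells with CCR7. Retinoic acid is known to raise Cxcl13 in the stroma of early lymph nodes.

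Counts in genes came to 38572573 to 44735721 in the controls and 35256531 to 52015498 in the RARdn libraries. Levels are CPM, the usual unit of counts relative to the library total, with totals scaled by TMM factors, and each mean is given with its SD over 3 libraries. Xist, made in female cells, had 1158 CPM in control 1 and 1118 CPM in control 3. It had no more than 0.312 CPM in control 2 and the RARdn libraries, so control 2 was the only control of the same sex as the RARdn samples. A fit with a term for sex therefore sets the RARdn libraries against control 2 alone. Without control 2, sex and genotype cannot be told apart. The list of acinar genes summed to 32979 CPM in RARdn 1 and to at least 102339 CPM in each other library, and RARdn 3 was the smallest library. Reads outside genes made up 7.60% to 8.99% of reads in controls but 2.90% to 5.30% in RARdn libraries, and 27828 to 28517 against 23995 to 27147 genes had a count, so both measures of library make-up moved with the groups, and their part in the results was not tested.

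Promoter sequences of a ligand gene and a chemokine gene are shown because the kB elements that NF-kB binds are the textbook link between the lymphotoxin receptor and these genes. They come from RefSeq (GRCm38.p6), which held 7 of the 9 members, and are given 5′ to 3′ and only upstream of the annotated transcript starts. Capitals mark the matching letters.
Ltb, chr17:35194257-35194438, plus strand: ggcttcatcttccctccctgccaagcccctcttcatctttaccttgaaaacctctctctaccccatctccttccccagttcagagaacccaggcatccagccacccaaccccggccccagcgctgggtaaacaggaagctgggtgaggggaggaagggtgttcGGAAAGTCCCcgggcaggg
Cxcl13, chr5:95956689-95956938, plus strand: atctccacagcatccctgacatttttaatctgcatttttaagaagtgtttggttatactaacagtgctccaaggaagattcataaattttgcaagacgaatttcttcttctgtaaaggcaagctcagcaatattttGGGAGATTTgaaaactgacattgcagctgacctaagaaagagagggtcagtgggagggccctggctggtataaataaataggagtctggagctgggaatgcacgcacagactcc

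In Ltb the capitals are a match to the NF-kB consensus on the minus strand, at -87 to -78 from the RefSeq start. Of the 7 member windows, searched on both strands over 300 bases, only that of Ltb held this consensus, as did 8.46% of 32851 mouse promoters of that length. In Cxcl13 they are GGGAGATTT, the letters known from a p52 and RelB element of this gene, at -114 to -106. They stood in 1 of the 7 windows and in 0.317% of all promoters, and were searched for because this gene is known to have them. A DR5 element, a form of the retinoic acid response element, was in none of the 7 windows and in 0.323% of all promoters. A match is a string of letters, and no binding was measured.

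**Figure D1:**
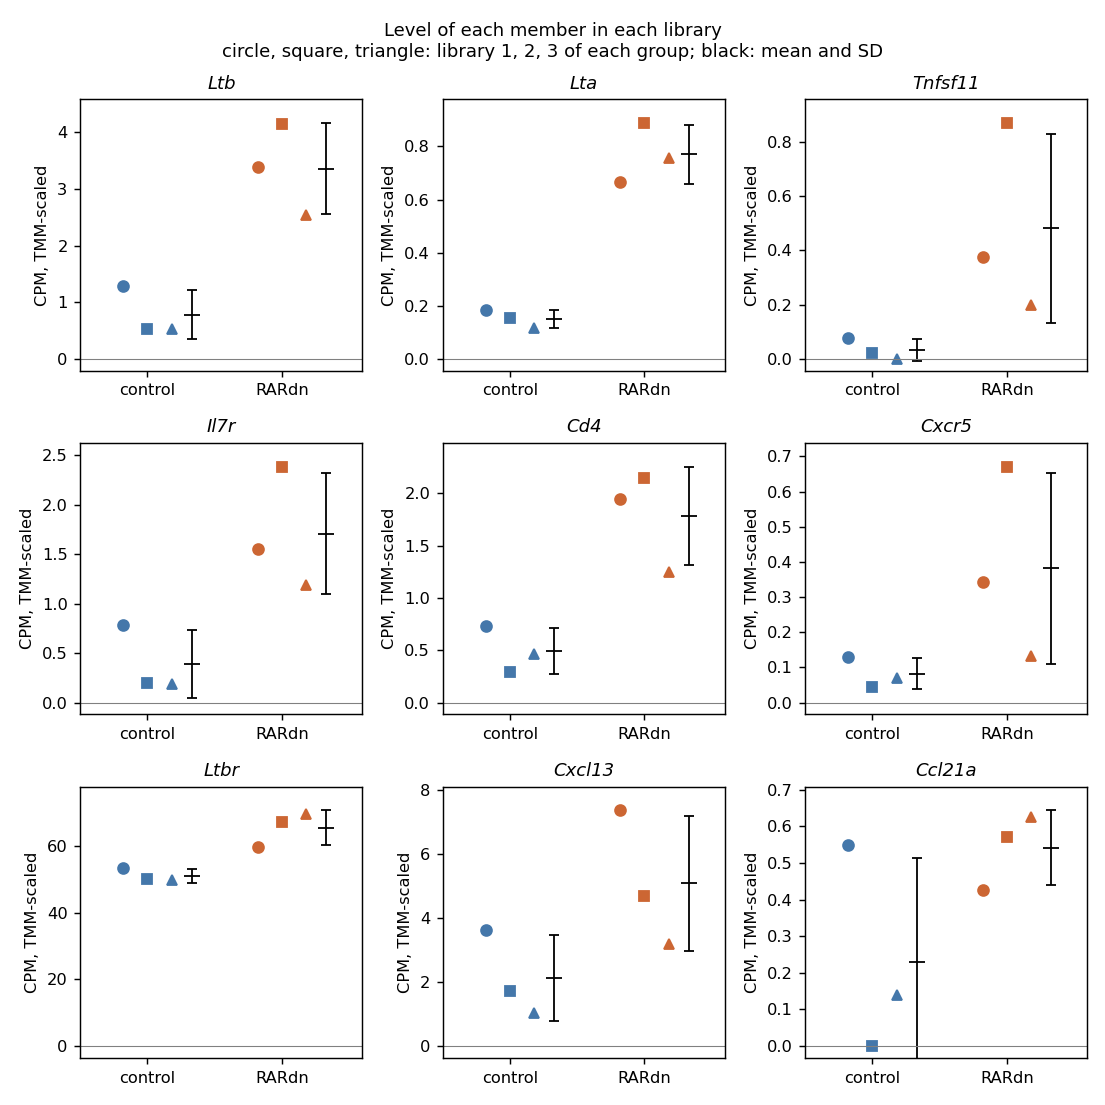
Level of each of the 9 members in each library, in TMM-scaled CPM on a linear axis. Points are libraries (circle, square and triangle for library 1, 2 and 3 of a group) and black bars the mean and SD; Ltb lies between 0.532 and 1.28 CPM in controls and between 2.53 and 4.14 CPM in RARdn pancreas, while Ltbr lies between 49.8 and 69.7 CPM over all libraries. The lower SD bar of Ccl21a in controls runs below 0 and is cut off by the axis.

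Both lymphotoxin ligand genes were several times higher in RARdn pancreas. Ltb, which anchors the lymphotoxin heterotrimer in the membrane (chromosome 17, 35194439 to 35196320), had 1.28, 0.535 and 0.532 CPM in controls 1, 2 and 3, against 3.38, 4.14 and 2.53 CPM in RARdn 1, 2 and 3. The lowest RARdn library lay above the highest control. The means were 0.782 ± 0.430 and 3.35 ± 0.804 CPM (SD, n = 3 each; log2 fold change 2.11, SE 0.39). In whole tissue, a difference in cell number and one in RNA per cell cannot be told apart, here and for each gene that follows.

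Lta, the shared subunit of both lymphotoxin forms (chromosome 17, 35203165 to 35205351), had 0.183, 0.156 and 0.116 CPM in the controls, against 0.667, 0.888 and 0.757 CPM in the RARdn libraries. The groups were apart, but the control values rest on 7, 7 and 5 reads. The log2 fold change was 2.33 (SE 0.40), and Lta entered the fit only through the RARdn libraries.

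Tnf stands between Ltb and Lta on chromosome 17 (35199381 to 35202007) and encodes the related cytokine. It had 6, 5 and 17 reads in controls and 23, 13 and 3 in RARdn libraries. With a median of 9.5 reads it falls under the limit of 10 used for members. It is therefore too low to read as changed or unchanged. Its control mean was 0.221 ± 0.152 CPM and its RARdn mean 0.249 ± 0.147 CPM (log2 0.24, SE 0.64, edgeR adjusted p = 0.861). It is named here although the naming rule did not select it, and its difference from the neighbouring genes was not tested.

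Tnfsf11 encodes RANKL, a further ligand of the family that inducer cells carry (chromosome 14, 78277445 to 78308043). It had 3, 1 and 0 reads in the controls and 22, 44 and 6 in the RARdn libraries. A count of 0 allows up to 0.0695 CPM in control 3. With a median of 4.5 reads over the libraries it is too low to read as a level. The ratio of the summed counts per library size was 16.3 (95% exact interval 6.10 to 61.4, counting error only).

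The receptor and surface genes of the inducer cell had few reads in the controls. Il7r, the interleukin 7 receptor gene (chromosome 15, 9505788 to 9530176), had 0.783, 0.2005 and 0.185 CPM in controls, against 1.56, 2.39 and 1.18 CPM in RARdn pancreas. Control 1 stood above the other controls and below every RARdn library. The means were 0.390 ± 0.341 and 1.71 ± 0.616 CPM (log2 2.16, SE 0.57). Il7r reached the level of the filter on low counts in 1 control and 3 RARdn libraries, so it entered the fit through the RARdn libraries. Without control 1 the log2 fold change was 3.14. With a term for sex, which leaves control 2 as the only control compared, it was 3.08.

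Cd4, the co-receptor gene that inducer cells share with helper T cells (chromosome 6, 124864692 to 124888221), had 0.731, 0.290 and 0.463 CPM in controls, against 1.95, 2.15 and 1.25 CPM in RARdn pancreas. Again no control reached the lowest RARdn library. The log2 fold change was 1.86 (SE 0.40), and 2.62 with a term for sex, which again compares with control 2 alone.

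Cxcr5, the receptor for CXCL13 (chromosome 9, 44511787 to 44561877), had 5, 2 and 3 reads in controls and 20, 34 and 4 in RARdn libraries. It is the other member too low to read, with a median of 4.5 reads. Its highest control and lowest RARdn value were 0.131 and 0.132 CPM, which 5 and 4 reads cannot tell apart. The summed counts gave a ratio of 5.25 (95% exact interval 2.66 to 11.5, counting error only). Part of its exons also overlaps Bcl9l on the other strand (110 bases), and the strand setting of the counting is not given in the sources used here.

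On the stromal side, the receptor gene differed little and the chemokine genes overlapped between groups. Ltbr, the lymphotoxin beta receptor gene (chromosome 6, 125306571 to 125313885), had 53.3, 50.01 and 49.8 CPM in controls, against 59.6, 67.1 and 69.7 CPM in RARdn pancreas. The groups did not overlap, but the difference was small, at a log2 fold change of 0.36 (SE 0.096), or 1.28-fold.

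Cxcl13 (chromosome 5, 95956951 to 95961068) had 3.63, 1.72 and 1.04 CPM in controls, against 7.37, 4.69 and 3.19 CPM in RARdn pancreas. Control 1 lay above RARdn 3, so the groups overlapped. The means were 2.13 ± 1.34 and 5.09 ± 2.11 CPM (log2 1.27, SE 0.46). Without control 1 the log2 fold change was 1.89.

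Ccl21a, a chemokine gene of lymphatic vessels and lymphoid stroma (chromosome 4, 42772860 to 42773993), had 21, 0 and 6 reads in controls and 25, 29 and 19 in RARdn libraries. Control 1, at 0.548 CPM, lay within the RARdn range of 0.427 to 0.625 CPM. It was the only control to reach the level of the filter on low counts, against 3 RARdn libraries. The log2 fold change of 1.26 had an SE of 0.88, and it was 0.66 without control 2, the library with no read, and 2.92 without control 1.

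Of the 9 members, 7 had enough counts to enter the fit, and the edgeR test over all genes called 3 of them (Ltb, Lta and Cd4), all higher in RARdn pancreas. Of all 19070 genes tested, 4.02% were called, and 1.37% were called as higher. In 5 of the 7 tested members every RARdn library lay above every control, which held for 13.9% of all genes tested. The same order in Tnfsf11 and Cxcr5 rests on too few reads. Nothing is read from these counts, because the members were chosen with this contrast known. Leaving out control 2, control 3 or RARdn 2, or adding a term for sex, left 0 members called by edgeR, and leaving out control 1 left 2 (Ltb and Il7r). Without RARdn 1 the called members were Ltb, Lta and Ltbr. Leaving out RARdn 3 gave 6, and DESeq2 on all libraries also gave 6. Each RARdn library lay above control 2, the control of the same sex, in 7 of 7 tested members and in 27.5% of all genes tested. From this order, too, nothing is read. Lta, Il7r and Ccl21a entered the fit through the RARdn libraries, and Ccl21a had no read in control 2. With the term for sex, control 2 is the only control in the comparison, and without control 2 sex and genotype cannot be told apart.

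**Figure D2:**
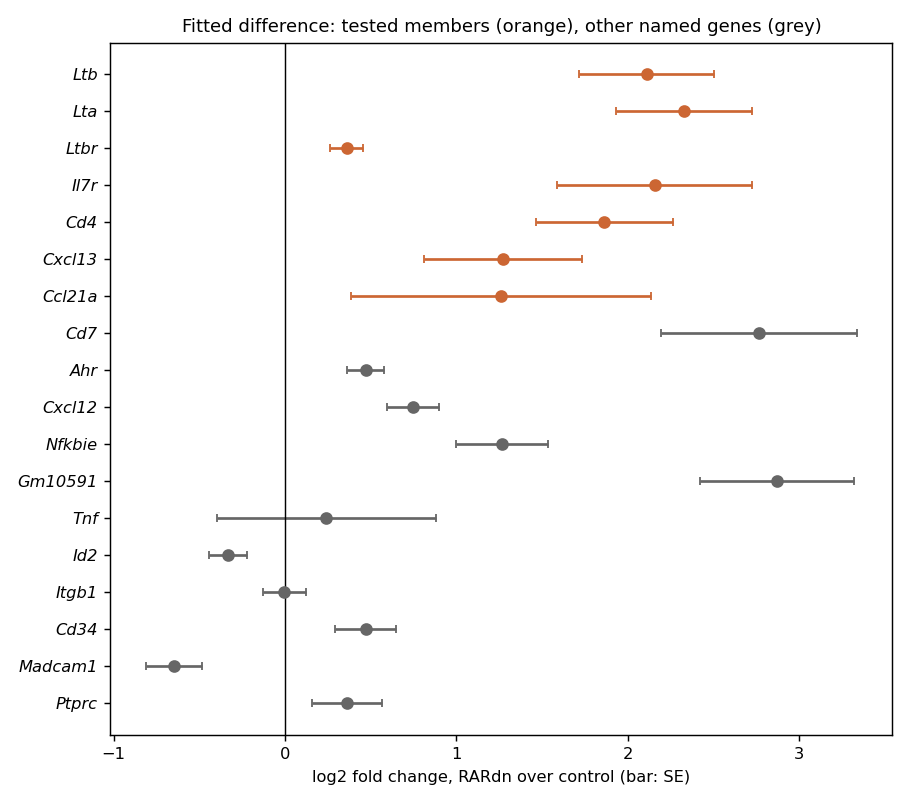
Fitted log2 fold change, RARdn over control, with its SE, for the 7 tested members (orange) and for other named genes (grey). Ltb, Lta, Il7r and Cd4 lie between 1.86 and 2.33, Ltbr lies at 0.36, and the bar of Tnf crosses 0. Tnf, with a median of 9.5 reads, is too low to read.

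Per kilobase of exon, Ltbr was the most abundant member by far, at 21.7 ± 0.834 CPM per kb in controls and 27.8 ± 2.24 in RARdn pancreas. Cxcl13 followed at 1.85 ± 1.17 and 4.42 ± 1.84 CPM per kb, then Ltb at 0.516 ± 0.284 and 2.21 ± 0.531. The control values of Cxcl13 and Ltb lay about 1 SD apart. In RARdn pancreas Ccl21a (0.623 ± 0.118), Lta (0.557 ± 0.0803), Cd4 (0.442 ± 0.117) and Il7r (0.367 ± 0.132 CPM per kb) followed, with neighbours in this order overlapping in mean ± SD. Tnfsf11 and Cxcr5 were lowest, at 0.215 ± 0.155 and 0.114 ± 0.0815 CPM per kb.

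In a list of 27 other inducer cell genes, 21 were tested and 2 rose in RARdn pancreas (9 higher at an unadjusted p under 0.05, 7 by DESeq2). Over all 19070 genes tested by edgeR, 4238 had an unadjusted p under 0.05 in either direction. DESeq2, run without the filter on low counts, called 2253 genes, 1003 of them higher. Such counts were thus common over all genes, which holds for each list below too, and nothing is read from them. None fell by edgeR (1 lower at an unadjusted p under 0.05, 0 lower by DESeq2). The list's median log2 fold change was 0.47, with 15 of 21 above 0, against a median of 0.00051 over all genes tested. Cd7, a surface gene of lymphoid cells, had 0.287, 0.0891 and 0.139 CPM in controls, against 1.04, 1.81 and 0.592 CPM in RARdn pancreas (log2 2.77, SE 0.57, edgeR adjusted p = 0.0375). Cd7 reached the level of the filter on low counts in 1 control and 3 RARdn libraries. It thus entered the fit through the group where it is high, and nothing is read from its call. Ahr, a ligand-activated transcription factor gene, rose from 19.0 ± 1.102 to 26.4 ± 1.87 CPM (log2 0.47, SE 0.11, adjusted p = 0.0487). Cd7 and Ahr each share exon bases with a gene on the other strand. The most abundant genes of the list were Itgb1, an integrin gene (log2 -0.0031, adjusted p = 0.992), and Id2 (log2 -0.33, adjusted p = 0.130). Il2rg, whose product pairs with that of Il7r and which is named after its values were seen, had 2.22, 2.09 and 2.41 CPM in controls, against 3.56, 4.36 and 3.98 CPM in RARdn pancreas, without overlap (adjusted p = 0.0576). Cd7 and Ahr lost their calls when control 1, 2 or 3 or RARdn 2 was left out and with a term for sex, and Ahr also with library size as the only scaling, with the replicate block and with a filter at 1 CPM. Over the alternatives, the adjusted p ran from 0.00052 (DESeq2) to 0.213 (edgeR) for Cd7 and from 0.0129 (DESeq2) to 0.322 (edgeR) for Ahr.

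Several further inducer cell genes were too low to read. Ccr6, Ccr7 and Il23r, named after their values were seen, had medians of 2.5, 3 and 1 reads. Il23r had 0, 1 and 0 reads in controls and 12, 10 and 1 in RARdn libraries. Il22 and Il17a, cytokine genes of activated innate lymphoid cells, had no read in any library.

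Of 13 tested stromal organiser genes, 1 rose in RARdn pancreas (6 higher at an unadjusted p under 0.05, 3 by DESeq2). It was Cxcl12, a chemokine gene of mesenchymal cells, with 135, 127 and 111 CPM in controls, against 234, 223 and 169 CPM in RARdn pancreas (log2 0.75, SE 0.15, edgeR adjusted p = 0.0342). None of the list fell by edgeR (1 lower at an unadjusted p under 0.05, 1 lower by DESeq2). The list's median log2 fold change was 0.47, with 11 of 13 above 0. Cd34, the other abundant gene, was at 109 ± 20.4 and 151 ± 28.8 CPM (adjusted p = 0.164). Madcam1, an adhesion molecule gene of lymph node organisers named after its values were seen, lay in the other direction (41.4 ± 1.85 and 26.4 ± 6.06 CPM, log2 -0.65, adjusted p = 0.0634). Ccl19, a ligand of CCR7 also named afterwards, had reads in RARdn 2 alone, with 7. Cxcl12 lost its call when control 1, 2 or 3 or RARdn 2 was left out, with library size as the only scaling, with a filter at 1 CPM and with a term for sex (adjusted p from 0.000169 by DESeq2 to 0.353 by edgeR over the alternatives).

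A further list held 27 genes of the lymphotoxin and TNF ligands, receptors, adaptors, kinases and NF-kB factors, all tested. Of these, 1 rose (5 higher at an unadjusted p under 0.05, 3 by DESeq2) and none fell by edgeR (0 lower at an unadjusted p under 0.05, 0 lower by DESeq2). The median of the list was 0.16 on the log2 scale, with 17 of 27 above 0. The called gene was Nfkbie, an inhibitor and transcriptional target of NF-kB, with 1.33, 1.85 and 1.57 CPM in controls, against 3.66, 4.89 and 2.86 CPM in RARdn pancreas (log2 1.26, SE 0.27, adjusted p = 0.0406). The most abundant of the list were Tnfrsf1a, a TNF receptor gene (log2 0.32, adjusted p = 0.0956), and Rela, an NF-kB subunit gene (log2 0.16, adjusted p = 0.404). Nfkbie lost its call under the same alternatives as Cxcl12 (adjusted p from 0.000645 by DESeq2 to 0.431 by edgeR over the alternatives).

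Of 13 tested cytokine and chemokine partners of the members, edgeR called none (6 at an unadjusted p under 0.05, all higher, and 4 by DESeq2). This list is not separate from those above. Il2rg, Jak3, Tnfrsf11a and Ccr7 are also in the inducer cell list, and Il7, Ackr4 and Tnfrsf11b in the organiser list. Il2rg, Jak3 and Tnfrsf11b are among the 6 and were counted there too. The median of the list was 0.46 on the log2 scale. The most abundant were Jak1 (log2 -0.081, adjusted p = 0.745) and Stat5b (log2 0.28, adjusted p = 0.129), both of interleukin 7 signalling.

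Reads of Ccl21a are uncertain, because the mouse genome holds near-identical copies of this gene, and reads that aligned to several places are tallied in a summary line outside the genes. Over 402 aligned bases the GENCODE transcripts of Gm10591 and Ccl21b matched that of Ccl21a at 400. Gm10591 (chromosome 4, 42612195 to 42612860) had 11, 5 and 5 reads in controls and 61, 74 and 38 in RARdn libraries. It rose from 0.171 ± 0.100 to 1.25 ± 0.208 CPM (log2 2.87, SE 0.45, edgeR adjusted p = 0.0160). It too reached the level of the filter on low counts in 1 control and 3 RARdn libraries, so nothing is read from its call. It lost its call when control 2, control 3 or RARdn 2 was left out and with a term for sex (adjusted p from 9.3e-06 by DESeq2 to 0.134 by edgeR over the alternatives).

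Ccl21a and its 4 near-identical copies, summed after their values were seen, had 0.861, 0.111 and 0.255 CPM in controls, against 1.49, 2.03 and 1.91 CPM in RARdn pancreas. In the sum the groups no longer overlapped, where Ccl21a alone did. Of the copies, Ccl21b and Gm13304 had at most 1 read in a library and Gm21541 had none. Ccl21c, for which no transcript sequence was compared, had 4, 5 and 3 reads in controls and 29, 7 and 6 in RARdn libraries. Gm2564, also listed as a copy, aligned over 21 bases alone and was kept out of the sum.

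**Figure D3:**
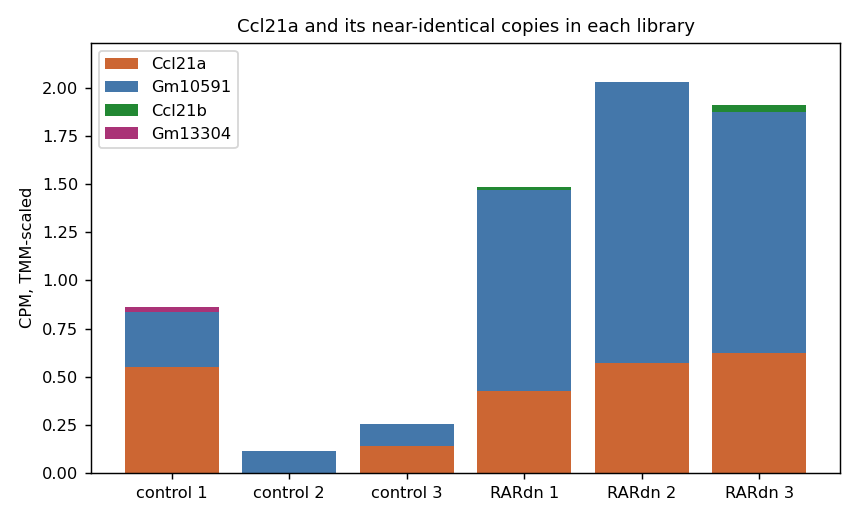
Stacked TMM-scaled CPM of Ccl21a and its near-identical copies in each library, on a linear axis from 0. The sums are at most 0.861 CPM in controls and at least 1.49 CPM in RARdn libraries, and Gm10591 makes up most of each RARdn bar.

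Leukocyte and mesenchymal transcripts were also higher in the RARdn libraries. All 9 pan-leukocyte genes had a log2 fold change above 0, edgeR called 2 of them higher, and their summed level was 48.3 to 73.2 CPM in controls, against 82.2 to 97.9 CPM in RARdn pancreas. Ptprc, the CD45 gene, had 4.24 to 5.32 CPM in controls and overlapping values of 4.67 to 7.14 CPM in RARdn pancreas; it is named after its values were seen. The 10 mesenchyme genes summed to 5096 to 6883 CPM and 8475 to 9571 CPM, with 1 called higher. In both lists control 1 was the highest control, as it was for all 9 members. The part that these shifts have in the members' differences was not tested.

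Set against the pan-leukocyte sum of the same library, 4 of the 7 tested members did not overlap between groups and were higher in RARdn pancreas, which held for 1.13% of all genes tested. The pan-leukocyte sum was itself higher in RARdn pancreas (ratio of mean sums 1.55). Dividing by it lowers the RARdn value of every gene relative to the controls. The share of 1.13% therefore belongs to this scale and is not comparable with the 13.9% on the CPM scale. Of the 4 members, Lta and Il7r entered the fit through the RARdn libraries. Nothing is read from this count either. Ltb stood at 17.5, 9.55 and 11.0 per 1000 pan-leukocyte CPM in controls and at 34.6, 43.9 and 30.8 in RARdn pancreas. Lta was at 2.56 ± 0.203 and 8.48 ± 1.45, Il7r at 6.04 ± 4.04 and 18.5 ± 5.92, and Cd4 at 8.24 ± 2.67 and 19.3 ± 3.83 on the same scale. Tnfsf11 did not overlap either, at few reads. Ltbr, Cxcr5, Cxcl13 and Ccl21a overlapped on this scale, and the ratio of mean Ltbr was 0.818.

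**Figure D4:**
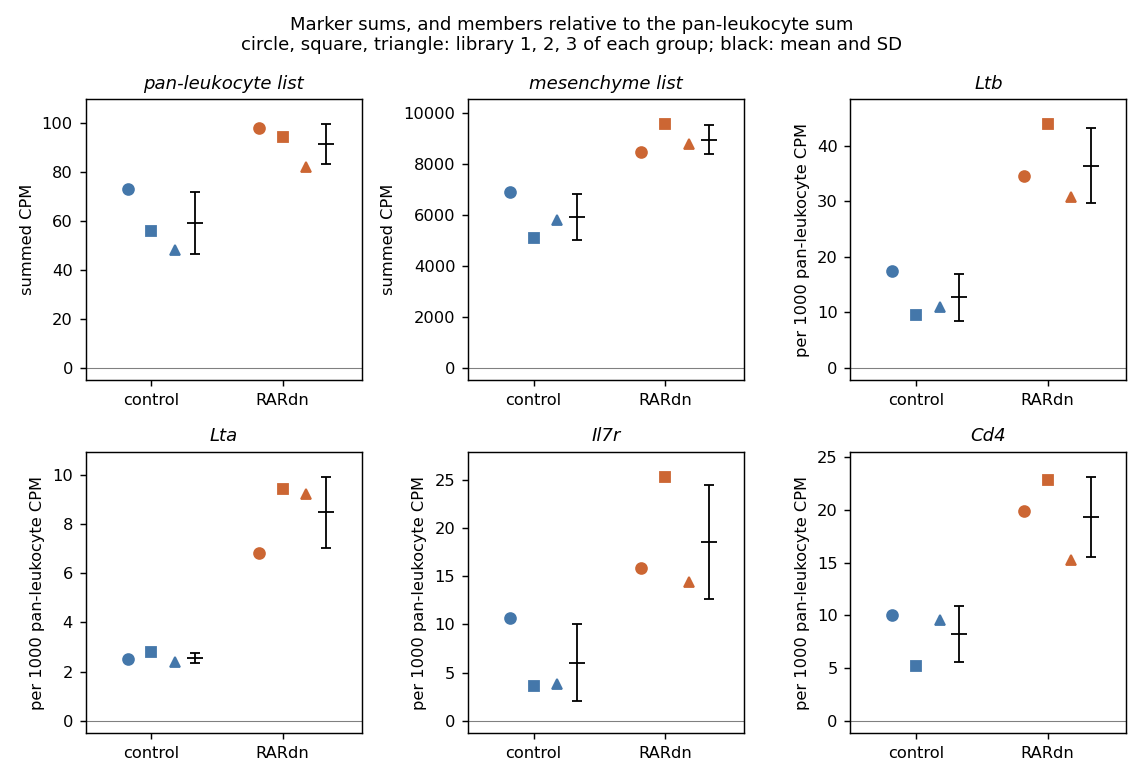
Summed CPM of the pan-leukocyte and mesenchyme lists, and Ltb, Lta, Il7r and Cd4 per 1000 pan-leukocyte CPM, in each library on linear axes. Points are libraries and black bars the mean and SD; both sums and all 4 ratios are higher in each RARdn library than in any control.

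The summed T and B cell lists overlapped between the groups, and their genes lay in both directions. The T cell list summed to 39.2 to 44.6 CPM in controls, against 26.5 to 50.2 CPM in RARdn pancreas, most of it from Trbc2. Trbc2 alone had 28.4 to 34.3 CPM in controls and 16.7 to 38.1 CPM in RARdn libraries. The overlap of the sum is thus largely that of Trbc2, and the sum is not read as a T cell level. Of its 8 tested genes edgeR called 0 (2 at an unadjusted p under 0.05, 1 by DESeq2). Cd8b1 had no read in any library and Cd3d at most 1, but Cd3e had 3.50 to 6.70 CPM over all libraries. Trac, a T cell receptor gene, had 14, 5 and 8 reads in controls and 72, 27 and 31 in RARdn libraries, with no overlap. Cd28 did not overlap either (log2 0.96), while the log2 fold changes of Cd3e, Trbc1 and Trbc2 were -0.28, -0.25 and -0.14. The B cell list summed to 20.8 to 28.6 CPM, against 23.7 to 36.5 CPM, most of it from Ebf1. Of its 5 tested genes edgeR called 0 (1 at an unadjusted p under 0.05, 0 by DESeq2). Cd79b, of the B cell receptor, had 26 in each control and 79, 51 and 35 in RARdn libraries. It was the only tested gene of that list without overlap, and the log2 fold changes of Blnk and Cd22 were -0.42 and -0.027. These markers are named after their values were seen, and Lta, Ltb and Cd4 are made by T cells too, and Lta, Ltb and Cxcr5 by B cells. Of 12 macrophage genes edgeR called 2 higher (8 higher at an unadjusted p under 0.05, 7 by DESeq2), 11 had a log2 fold change above 0, and the median was 0.69. Their sum, which includes 110 to 333 CPM of C1qa (log2 -0.29), overlapped between groups (371 to 524 and 365 to 560 CPM). The lymphatic vessel list summed to 186 to 235 and 239 to 256 CPM, with 0 of 7 tested genes called by edgeR (3 at an unadjusted p under 0.05, 2 by DESeq2). The part of these cell types in the members' differences was not tested.

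Across the 6 libraries the genes most like each readable member on the log2(CPM + 1) scale were Lum and Prickle1 for Ltb, Pole4 and Plekhm1 for Lta, Timp2 and Olfml3 for Il7r, Slc12a4 and Ptafr for Cd4, Rps12-ps24 and Esyt1 for Ltbr, Plxnc1 and C1qtnf7 for Cxcl13, and Ppp2r2b and Synpr for Ccl21a. Their Pearson r ran from 0.991 to 0.9997 over 6 libraries that fall into 2 groups, so a shared difference between groups gives a high r. Between 23 and 426 genes had an r over 0.95 with a given member.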

How the data were processed

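The deposited values are raw read counts per gene symbol, 1 table per sample. The submitters' processing notes name HISAT2 and HTSeq, with cutadapt, FastQC, bedtools and DESeq2, and the builds mm10 and GRCm38. For versions, annotation and strand setting: not given in the sources used here. The 5 HTSeq summary lines held 30.5% to 31.5% of reads in controls and 25.4% to 28.3% in RARdn libraries and were left out.

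Genes were filtered with filterByExpr (0.225 CPM in 3 libraries), scaled by TMM and tested with edgeR 4.0.16 in R 4.3.3 (quasi-likelihood test, 2-sided, genotype as the only term). P-values were adjusted over 19070 genes by the Benjamini-Hochberg method, with calls at 0.05. SEs were worked back from the F statistic. The script was tested on simulated data. Nothing says that samples came from separate litters, so each p-value measures only the spread between these 6 samples, and that may be technical. A member with a median under 10 reads was read as too low. Positions, exon lengths and transcripts came from GENCODE M21 (GRCm38). Alternatives were DESeq2 1.42.0, RLE or no scaling, other filters, a replicate block, a term for sex, no acinar genes, and each library left out.

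Members and lists were chosen with earlier results of these data known. Named genes were the members, up to 6 called genes and the 2 most abundant of each pathway list, the copies of Ccl21a, and the 2 genes most like each readable member. Reads are not independent molecules, so intervals cover counting error only. The results of 2 genes are not reported here.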

Additional observations from a re-analysis of the deposited data

How the results depend on the processing

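No member's log2 fold change changed sign under any alternative that could be fitted. Ltb ran from 1.90 to 2.65, Lta from 2.17 to 2.48, Ltbr from 0.32 to 0.45, Il7r from 1.82 to 3.14 and Cd4 from 1.58 to 2.62. Cxcl13 ran from 0.93 to 1.89, Cxcr5 from 1.95 to 2.73, and Tnfsf11 from 3.26 to 5.13 (without control 1, against 3.84 in the unfiltered fit of all libraries). Ccl21a ran from 0.66 without control 2, its library with no read, to 7.58 with the term for sex. That term sets the RARdn libraries against control 2 and its count of 0, so 7.58 cannot be read as a fold change. The number of members called was 0 to 6.

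The counts of called genes changed more. Over all genes 767 were called. There were 474 with library size only, 2346 without a filter on low counts, 217 with at least 1 CPM in 3 libraries, 61 with the term for sex and 2253 by DESeq2, of which 125, 1123, 77, 5 and 1003 were higher, against 262 of 767. Leaving out 1 library gave 100 (without control 2) to 2980 (without RARdn 3). Of inducer cell genes, 2 were called, 7 without a filter or by DESeq2, 0 with the 1 CPM filter or the term for sex, and 0 to 5 with 1 library left out. Of organiser genes, 1 was called, 5 without a filter, 4 by DESeq2, 0 with library size only, the 1 CPM filter or the term for sex, and 0 to 4 with 1 library left out. Of genes from the receptor to NF-kB, 1 was called, 3 without a filter or by DESeq2, 0 with library size only, the 1 CPM filter or the term for sex, and 0 to 5 with 1 library left out. With the term for sex the comparison is against control 2 alone, and without control 2 genotype is confounded with sex. The cause of these shifts was not tested.

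With the replicate block 817 genes were called, and 2 organiser genes and 4 members. Same-numbered libraries had deviations correlated at 0.0249, -0.0601 and 0.172, against -0.154 to 0.167 for libraries of different number. These values do not show that the numbers pair the samples, and with 3 libraries a group they cannot exclude it. The SE of Cxcl13 was 0.23 with the block, against 0.46 without it. With the limit for a readable member at a median of 20 reads 3 members were too low, and at 5 reads 2, as at 10. At these depths, members under about 10 reads a library cannot show small differences.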
